A study of Sus scrofa with 24 samples.

Results

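Genes of bile acid synthesis and transport were examined in the liver of pigs injected with anabolic steroid esters. The members were the rows of the deposited tables whose symbol was CYP7A1, CYP8B1, CYP27A1, HSD3B7, AKR1D1, BAAT, ABCB11, ABCB4, SLC10A1 or NR1H4. Of these 10 genes, 5 had a row (CYP7A1, HSD3B7, BAAT, SLC10A1 and NR1H4) among the 13463 genes of the tables, and the other 5 were not analysed here. Of all rows, 3779 carry no symbol, of which 359 could be named from a reference table of gene IDs, so a row of a missing member without a name would not have been found. BAAT had too few reads to be tested, so 4 members were among the 8279 genes tested between treatments. A further 72 genes of the same pathway were listed, of which 43 had a row.

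The trial asked which liver transcripts change when fattening pigs receive testosterone or nandrolone esters as illicit growth promoters. Poly-A RNA of 24 pigs was sequenced, with 1 library per pig. The Sustanon group (testosterone esters, 4 mg/kg) held 3 castrated boars, 3 sows and 2 uncastrated boars. The Myodin group (nandrolone, 5 mg/kg) held 2 castrated boars, 3 sows and 3 uncastrated boars. The control group, which received neither preparation, held 3 castrated boars, 3 sows and 2 uncastrated boars. According to the paper, tested groups were penned apart and controls were kept in a room of their own. Differences between treatments therefore cannot be told apart from differences in housing. All pigs were crossbreds of Large White, Landrace and Duroc and were 90 days old when assigned to groups. In the clinical phase treated pigs received 5 intramuscular injections, 4 days apart, and all were slaughtered 4 days after the last one. The experimental groups had also had a single injection of their preparation in an earlier preclinical phase, at a lower dose for Myodin. Uncastrated boars kept their own testes in every treatment, so castrated boars and sows were also compared on their own, as pigs without testes.

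Library totals ranged from 9267780 to 14017276 counted reads. The 6 hepatocyte markers with a row had a summed level of 92166 to 215308 TPM per library (reads scaled by gene length and library depth). The Y-linked genes KDM5D and EIF1AY went against the label in 3 control libraries. The library labelled control castrated boar 15 had 0 and 1 counts of these genes. The library labelled control sow 16 had 35 and 476 counts, and the library labelled control sow 18 had 95 and 434 counts. These libraries were kept under their labels, and the calls of members and pathway genes are given with and without them, as are some values of members that did not pass the test. All 3 were labelled as castrated boar or sow and so counted as controls without testes. Y-linked counts cannot show whether a pig had testes, so that grouping follows the labels and is in doubt for these 3. The other castrated and uncastrated boars had 36 to 82 counts of KDM5D, and the other sows had 0. The column of Sustanon sow 6 carries the header suffix of the Sustanon castrated boars. It was assigned by its sample name, and its counts of both Y-linked genes were 0. In whole liver, fewer cells of a type and less RNA per cell cannot be told apart.

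Bile acids are made from cholesterol in hepatocytes, in a classic route that CYP7A1 opens and that BAAT closes by joining the acid to taurine or glycine. They are pumped into bile, reabsorbed in the intestine and taken back from portal blood, mainly by the sodium-dependent carrier SLC10A1 (NTCP). The nuclear receptor NR1H4 (FXR) senses them and restrains synthesis and uptake, in part through the repressor NR0B2 (SHP). Anabolic steroids with an alkyl group on the D ring are known for cholestasis, a failure of bile flow.

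In units that allow genes to be compared, HSD3B7 had the highest level of the members, at 211 ± 33.5 TPM over all libraries (SD, n = 24). NR1H4 followed with 146 ± 33.2 TPM and SLC10A1 with 116 ± 48.2 TPM, and the ranges of these 3 genes over libraries overlapped. CYP7A1 was far lower, at 3.12 ± 2.58 TPM, with every library below the lowest value of the other 3. BAAT was at the limit of detection.

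SLC10A1 was the member that differed most clearly between treatments. Its level was higher in all 8 Sustanon pigs than in any of the 8 control pigs. It was the only 1 of the 4 tested members that passed edgeR's test between Sustanon and control, where 5.07% of all tested genes passed, 3.39% upward. By DESeq2 and by each limma setting 2 members were called. DESeq2 called 637 genes in all, beside 420 by edgeR. Limma called 323 on log2(TPM + 1), 320 on log2(TPM + 0.1) and 255 on log2(TPM + 1) without a filter. The edgeR call of SLC10A1 was made with all libraries. It was lost when the 3 libraries with contrary Y-linked counts were left out, as given below.

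SLC10A1 (ENSSSCG00000002313) lies on chromosome 7 of Sscrofa11.1, between 93400037 and 93421989 in the RefSeq annotation. It had 2046 to 8073 reads per library. Levels within a gene are given as CPM, counts scaled to a common library size after TMM correction for library composition. In control castrated boars 13, 14 and 15 it was at 275, 344 and 245 CPM. In control sows 16, 17 and 18 it was at 304, 175 and 257 CPM, and in control uncastrated boars 25 and 27 at 398 and 428 CPM. The control uncastrated boars were the highest of the controls. In Sustanon castrated boars 1, 2 and 3 it was at 461, 654 and 465 CPM. In Sustanon sows 4, 5 and 6 it was at 656, 648 and 641 CPM, and in Sustanon uncastrated boars 19 and 20 at 670 and 530 CPM. The sows were close together, and the lowest treated pig was still above the highest control. In Myodin castrated boars 8 and 9 it was at 255 and 350 CPM. In Myodin sows 10, 11 and 12 it was at 345, 201 and 244 CPM, and in Myodin uncastrated boars 22, 23 and 24 at 253, 759 and 523 CPM. The Myodin pigs without testes lay among the controls without testes and slightly above, while Myodin uncastrated boar 23 was the highest pig of the whole trial.

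The mean of SLC10A1 was 303 ± 83.7 CPM in controls, 591 ± 90.003 CPM with Sustanon and 366 ± 188 CPM with Myodin (SD, n = 8 each). It was 1.95-fold higher with Sustanon than in controls, a log2 fold change of 0.96 with a standard error (SE) of 0.22 and an adjusted p of 0.0161 by edgeR's quasi-likelihood test. A complete separation of the treated pigs above the controls was seen in 0.362% of all tested genes. Each of the 24 fits that left out a single pig kept this call, with adjusted p of edgeR between 0.00288 and 0.0373. Without the 3 libraries whose Y-linked counts went against the label, the log2 fold change was 0.86 and the adjusted p of edgeR 0.150. In that fit edgeR called 0 of 8434 genes (1199 at an unadjusted p under 0.05) and DESeq2 called 210, SLC10A1 among them with an adjusted p of 0.0493.

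Among pigs without testes SLC10A1 also rose with Sustanon. It was at 267 ± 57.5 CPM in 6 controls and 587 ± 96.7 CPM in 6 Sustanon pigs, and all 6 treated pigs were above all 6 controls. These 6 controls are without testes by label, and they include the 3 libraries with contrary Y-linked counts. The log2 fold change was 1.13 with an SE of 0.21 and an adjusted p of 0.00472 by edgeR, a 2.18-fold rise. In this comparison 5.32% of 8754 genes passed the test, 3.27% upward, and 1.99% had every treated pig above every control. The call held without the 3 libraries named above, at a log2 fold change of 1.32 and an adjusted p of 0.0434 by edgeR, although control sows were then a single library. The effect of Sustanon in uncastrated boars minus that without testes was -0.59 on the log2 scale, with a 95% interval from -1.47 to 0.28 and an adjusted p of 0.787 by edgeR, in a test that 0.0571% of genes passed, so a difference between these animals was not shown. This value was -0.79 with an adjusted p of 0.803 without the 3 libraries.

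Myodin did not pass the test for SLC10A1. The log2 fold change over control was 0.27 with a 95% interval from -0.19 to 0.73, and among pigs without testes it was 0.09 with an interval from -0.37 to 0.56. These intervals leave room for a rise of up to 1.66-fold in all pigs and 1.47-fold in pigs without testes. With 1 pig left out the value over all pigs ranged from 0.03 to 0.36. Without the 3 libraries with contrary Y-linked counts it was 0.18 over all pigs and 0.29 in pigs without testes. Sustanon was 1.61-fold above Myodin, with a log2 fold change of 0.69, an SE of 0.22 and an adjusted p of 0.115 by edgeR, in a comparison where 0.664% of genes passed. The call depended on the fit. Without Myodin uncastrated boar 23, the highest Myodin pig, the log2 fold change was 0.93 and the adjusted p 0.00668. With that boar kept in and castration and sex as a covariate, the log2 fold change was 0.83, with an adjusted p of 0.0188.

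**Figure D1:**
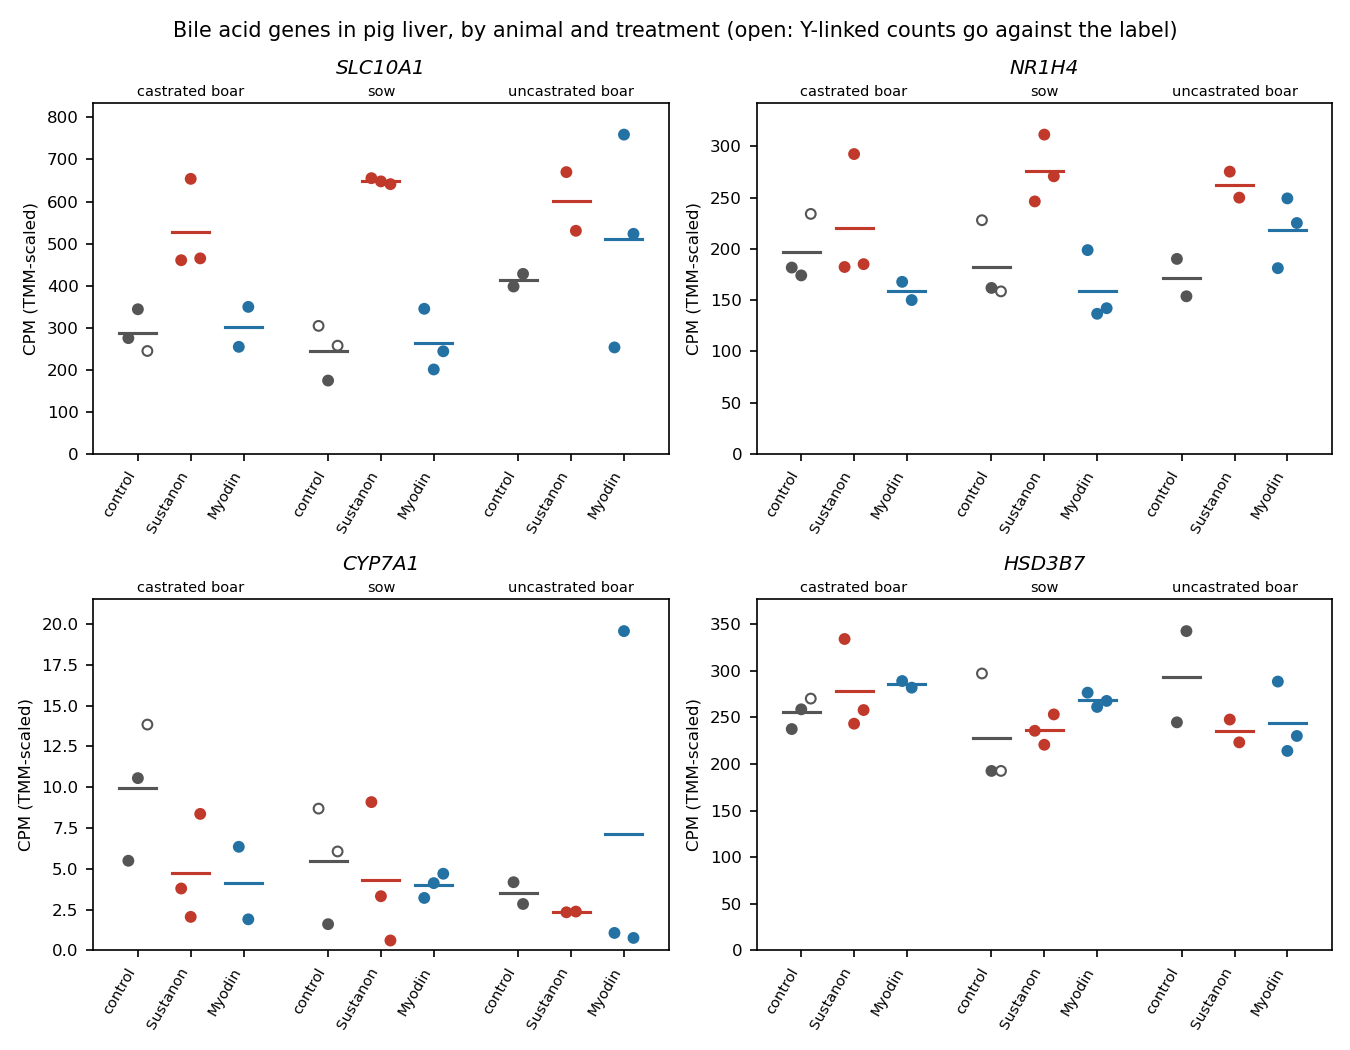
Level of the 4 tested members in every pig (CPM, linear axis), by castration group and treatment, with the group mean as a line and open circles for the 3 libraries whose Y-linked counts go against their label. All Sustanon pigs lie at or above 461 CPM of SLC10A1 and all controls at or below 428 CPM, while the ranges of HSD3B7 overlap between the 3 treatments.

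Of the synthesis enzymes, none of the measured members passed the test in any comparison. CYP7A1 (ENSSSCG00000006238; chromosome 4, 74343101 to 74372628) hydroxylates cholesterol and sets the pace of the classic route. It had 7 to 208 reads per library, with a median of 44, the fewest of the tested members. In the 8 controls it ranged from 1.61 to 13.8 CPM with a median of 5.78 CPM. In the 8 Sustanon pigs it ranged from 0.612 to 9.09 CPM with a median of 2.85 CPM. In the 8 Myodin pigs it ranged from 0.769 to 19.6 CPM with a median of 3.67 CPM. The ranges overlapped over most of their length, and Myodin uncastrated boar 23, the pig with the highest SLC10A1, was also the highest for CYP7A1.

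CYP7A1 differed by -0.73 on the log2 scale with Sustanon, with an SE of 0.56 and an adjusted p of 0.527 by edgeR, and by -0.29 with an adjusted p of 0.886 when the 3 libraries with contrary Y-linked counts were left out. With all libraries its 95% interval ran from -1.88 to 0.42, so that neither a marked fall nor a modest rise can be set aside at this depth and number of pigs. With Myodin it was -0.35, with an interval from -1.48 to 0.78, and -1.07 without Myodin uncastrated boar 23. In pigs without testes the Myodin value was -0.84, with an interval from -2.32 to 0.64. The highest control, at 13.8 CPM, was the library labelled control castrated boar 15. Among pigs without testes the Sustanon value was -0.70 with all libraries and 0.32 without the 3 libraries with contrary Y-linked counts, so its direction depended on them. The Myodin values also turned positive without them, to 0.09 in all pigs and 0.18 in pigs without testes.

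HSD3B7 (ENSSSCG00000032369; chromosome 3, 17459627 to 17463381) encodes the microsomal dehydrogenase of the next step, on the sterol ring. It varied least of the tested members over the 24 libraries, with a coefficient of variation of 14.7%, beside 24.5% for NR1H4, 42.1% for SLC10A1 and 85.8% for CYP7A1. These values include differences between treatments. Within controls alone the coefficient was 19.9% for HSD3B7, 16.6% for NR1H4, 27.6% for SLC10A1 and 61.8% for CYP7A1. HSD3B7 ranged from 193 to 343 CPM in controls, with a median of 252 CPM. With Sustanon it ranged from 221 to 334 CPM with a median of 246 CPM, and with Myodin from 214 to 289 CPM with a median of 272 CPM. The groups overlapped, and the highest Sustanon value was that of castrated boar 1. HSD3B7 differed by -0.01 on the log2 scale with Sustanon, with a 95% interval from -0.24 to 0.21, and 0.05 with Myodin, with an interval from -0.18 to 0.28. Changes of more than 1.16-fold up or to less than 0.845-fold lay outside the Sustanon interval.

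BAAT (ENSSSCG00000035245), the enzyme that conjugates bile acids to amino acids, had 0 to 2 reads in every library. It had 6 reads over the 8 controls, 2 over the 8 Myodin pigs and 0 over the 8 Sustanon pigs. A count of 0 allows up to 3 reads per library, so no difference was detectable with so few reads, and no fold change is given. No place was found for BAAT under this symbol in the RefSeq annotation. Whether this row covers the gene expressed in liver was not tested, so its counts are not read as the level of the enzyme.

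NR1H4 (ENSSSCG00000000875; chromosome 5, 83607222 to 83732668), the bile acid receptor, was on average higher with Sustanon but did not pass the test. In control castrated boars 13, 14 and 15 it was at 182, 174 and 234 CPM. In control sows 16, 17 and 18 it was at 228, 162 and 159 CPM, and in control uncastrated boars 25 and 27 at 190 and 154 CPM. The highest of these were the libraries labelled castrated boar 15 and sow 16, both with contrary Y-linked counts. In Sustanon castrated boars 1, 2 and 3 it was at 182, 292 and 185 CPM. In Sustanon sows 4, 5 and 6 it was at 246, 311 and 271 CPM, and in Sustanon uncastrated boars 19 and 20 at 275 and 250 CPM. Among the treated pigs 6 of 8 were above every control, and castrated boars 1 and 3 lay among the controls. In Myodin castrated boars 8 and 9 it was at 168 and 150 CPM. In Myodin sows 10, 11 and 12 it was at 199, 137 and 142 CPM, and in Myodin uncastrated boars 22, 23 and 24 at 181, 249 and 225 CPM.

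NR1H4 differed by 0.44 on the log2 scale with Sustanon, with an SE of 0.14, an unadjusted p of 0.00339 and an adjusted p of 0.0580 by edgeR. At an unadjusted p under 0.05, 2 of the 4 tested members and 19.6% of all genes passed. The value lay close to the threshold under other settings: DESeq2 gave an adjusted p of 0.0319 and limma on the log2 TPM values 0.0368. It also passed in edgeR without Sustanon castrated boar 1 (0.0293), Sustanon castrated boar 3 (0.0308), Myodin uncastrated boar 23 (0.0365) or control castrated boar 15 (0.0492). Without the 3 libraries with contrary Y-linked counts it was 0.54 with an adjusted p of 0.121. Among pigs without testes the log2 fold change was 0.37 with an adjusted p of 0.150, and 0.53 with an adjusted p of 0.188 without those 3 libraries. Against Myodin it was 0.47 with an adjusted p of 0.0825 by edgeR and 0.0402 by DESeq2. The adjusted p of edgeR was 0.0159 without Myodin uncastrated boar 23, 0.0435 without Sustanon castrated boar 1 and 0.0431 without Sustanon castrated boar 3.

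With Myodin, NR1H4 differed from control by -0.03 on the log2 scale, with a 95% interval from -0.31 to 0.25. In pigs without testes it was -0.24, with an interval from -0.57 to 0.08, and 3 of 5 treated pigs were below all 6 controls. This value was -0.087 when the 3 libraries with contrary Y-linked counts were left out. The Myodin effect in uncastrated boars minus that without testes was 0.61, with an unadjusted p of 0.0402 and an adjusted p of 0.382 by edgeR. In this interaction 0.126% of genes passed the adjusted test, and 1083 of 8754 genes had an unadjusted p under 0.05. Without the 3 libraries with contrary Y-linked counts the effect was 0.45, with an unadjusted p of 0.129 by edgeR.

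**Figure D2:**
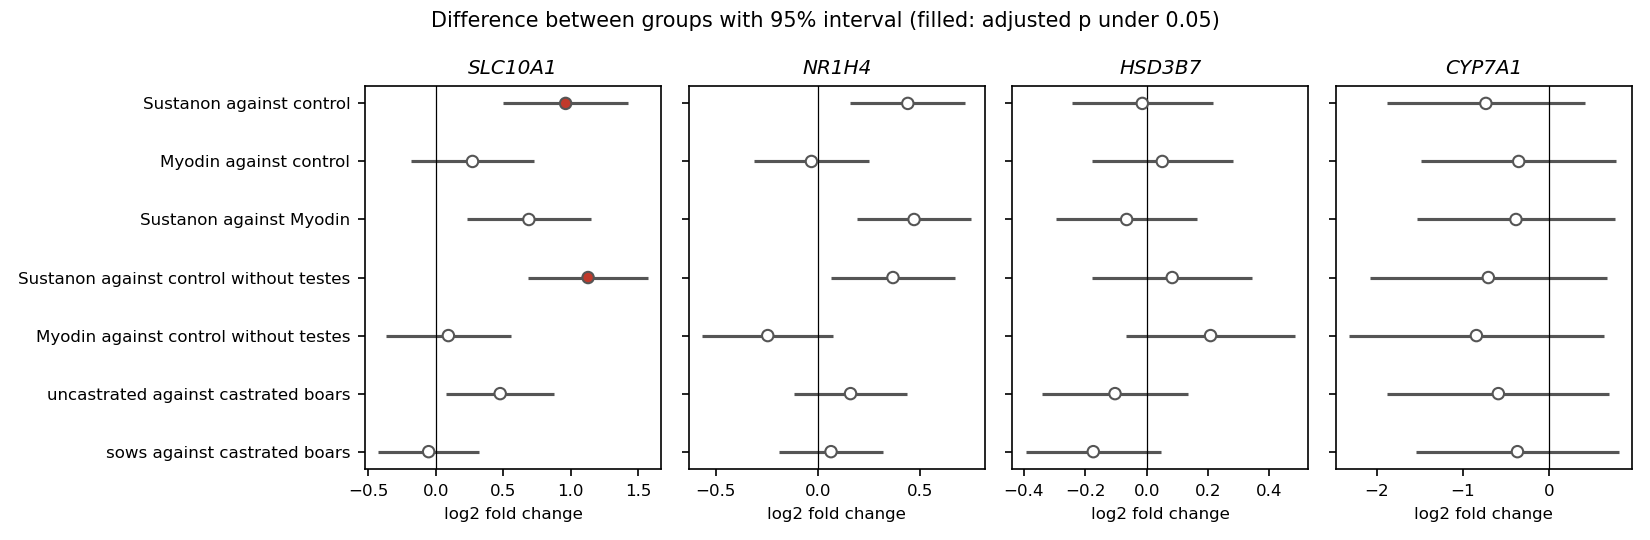
Log2 fold change of the 4 tested members in 7 comparisons with 95% intervals, filled where the adjusted p of edgeR was under 0.05. Only SLC10A1 was called, at 0.96 in all pigs and 1.13 in pigs without testes, and the intervals of CYP7A1 are the widest.

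The other genes of the pathway did not move as a block. Of 39 tested between Sustanon and control, 3 rose, 0 fell and 36 did not pass edgeR's test, where 5.07% of all tested genes passed, 3.39% upward. The 39 genes' median log2 fold change was 0.02 beside -0.01 over all genes. By role, 2 of 11 synthesis genes rose (median 0.16), 1 of 10 regulators rose (median 0.13), and none of 13 transporters and their partners (median -0.09) or 5 clearance genes (median -0.03) passed. At an unadjusted p under 0.05, which 19.6% of all genes reached, edgeR gave 5 of the 11 synthesis genes (4 higher, 1 lower), 2 of the 10 regulators (both higher), 2 of the 13 transporters (1 higher, 1 lower) and 3 of the 5 clearance genes (2 higher, 1 lower). Among pigs without testes 3 of 40 rose and 0 fell, where 5.32% of all genes passed, 3.27% upward, and the median was 0.04.

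NR0B2 (chromosome 6, 84225670 to 84228156), the repressor that NR1H4 is known to induce, was the regulator that rose. In controls it ranged from 28.1 to 80.2 CPM with a median of 50.5 CPM, with Sustanon from 68.7 to 180 CPM with a median of 95.2 CPM, and with Myodin from 35.5 to 90.8 CPM with a median of 58.6 CPM. Of the Sustanon pigs 5 of 8 were above every control. Its log2 fold change was 0.99 with an SE of 0.22 and an adjusted p of 0.0140 by edgeR. In pigs without testes the log2 fold change was also 0.99, with an adjusted p of 0.0271 that moved above 0.05, to at most 0.0841, without Sustanon castrated boar 1 (0.0623), Sustanon castrated boar 2 (0.0506), Sustanon sow 5 (0.0841), control castrated boar 14 (0.0628), control castrated boar 15 (0.0622), control sow 17 (0.0727) or control sow 18 (0.0612). Without the 3 libraries with contrary Y-linked counts it was 1.07 in all pigs (adjusted p 0.116) and 1.23 in pigs without testes (adjusted p 0.0906). With Myodin the value was 0.24, with an interval from -0.22 to 0.70.

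HSD17B4 (chromosome 2, 123313445 to 123401386) encodes the peroxisomal bifunctional protein that shortens the side chain of bile acid precursors and also oxidises fatty acids. It ranged from 325 to 570 CPM in controls (median 443 CPM), from 511 to 898 CPM with Sustanon (median 724 CPM) and from 341 to 600 CPM with Myodin (median 466 CPM). The Sustanon range began inside the control range and ended well above it. Its log2 fold change with Sustanon was 0.64 with an SE of 0.15 and an adjusted p of 0.0151 by edgeR. In pigs without testes it was 0.70 with an adjusted p of 0.0237. That call was lost without Sustanon castrated boar 2 (0.0741), Sustanon sow 5 (0.0606), control castrated boar 13 (0.0555), control castrated boar 15 (0.0563) or control sow 18 (0.0543). Without the 3 libraries with contrary Y-linked counts the log2 fold change was 0.60 in all pigs (adjusted p 0.116) and 0.68 in pigs without testes (adjusted p 0.174).

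CYP4A24 (chromosome 6, 164496928 to 164518189) belongs to a family of fatty acid hydroxylases, 1 pig member of which acts on bile acids. How reads shared with close relatives were counted is not stated, so its values are uncertain. It ranged from 72.7 to 295 CPM in controls and from 131 to 889 CPM with Sustanon, and 6 of 8 treated pigs were above every control. CYP4A24 rose by 1.24 on the log2 scale, with an SE of 0.34 and an adjusted p of 0.0344 by edgeR. The adjusted p was 0.0528 by limma, and above 0.05 in the fits without Sustanon castrated boar 2 (0.0560), Sustanon sow 4 (0.0624), Sustanon sow 5 (0.0557), Sustanon uncastrated boar 19 (0.0997), control castrated boar 13 (0.0648), control castrated boar 14 (0.0513), control castrated boar 15 (0.0673), control sow 17 (0.0656) or control sow 18 (0.0695). In pigs without testes the value was 1.25 with an adjusted p of 0.0767, and 1.76 with an adjusted p of 0.134 without the 3 libraries with contrary Y-linked counts. Over all pigs it was 1.25 without them, with an adjusted p of 0.159.

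PEX5 (chromosome 5, 63542422 to 63562762) is the receptor that carries enzymes, those of side chain shortening among them, into peroxisomes. In control castrated boars 13, 14 and 15 it was at 74.9, 84.2 and 72.6 CPM, and in control sows 16, 17 and 18 at 73.6, 70.2 and 64.7 CPM. The control uncastrated boars 25 and 27 stood apart from them, at 177 and 139 CPM. With Sustanon it ranged from 115 to 163 CPM in pigs without testes and was at 110 and 146 CPM in uncastrated boars 19 and 20. All 6 Sustanon pigs without testes were above all 6 controls without testes, with a log2 fold change of 0.85, an SE of 0.12 and an adjusted p of 0.000616 by edgeR, a separation seen upward in 1.99% of genes. This call held without the 3 libraries with contrary Y-linked counts, at 0.82 and an adjusted p of 0.0434. Over all pigs, uncastrated boars included, the value was 0.48 with an adjusted p of 0.120. Without those 3 libraries the value over all pigs was 0.27 with an adjusted p of 0.569 by edgeR.

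With Myodin, PEX5 ranged from 88.8 to 129 CPM in pigs without testes, and all 5 were above all 6 controls, a separation seen upward in 0.88% of genes. The log2 fold change was 0.62 with an SE of 0.13 and an adjusted p of 0.0759 by edgeR, in a comparison where 0.0571% of genes passed. It was 0.59 without the 3 libraries with contrary Y-linked counts, when control sows were a single library. The effect in uncastrated boars minus that without testes was -1.16 on the log2 scale for Sustanon (unadjusted p 0.000135, adjusted p 0.112) and -0.92 for Myodin (unadjusted p 0.000732, adjusted p 0.137), and neither passed the adjusted test of edgeR. Without the 3 libraries with contrary Y-linked counts these effects were -1.13 for Sustanon and -0.89 for Myodin.

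**Figure D3:**
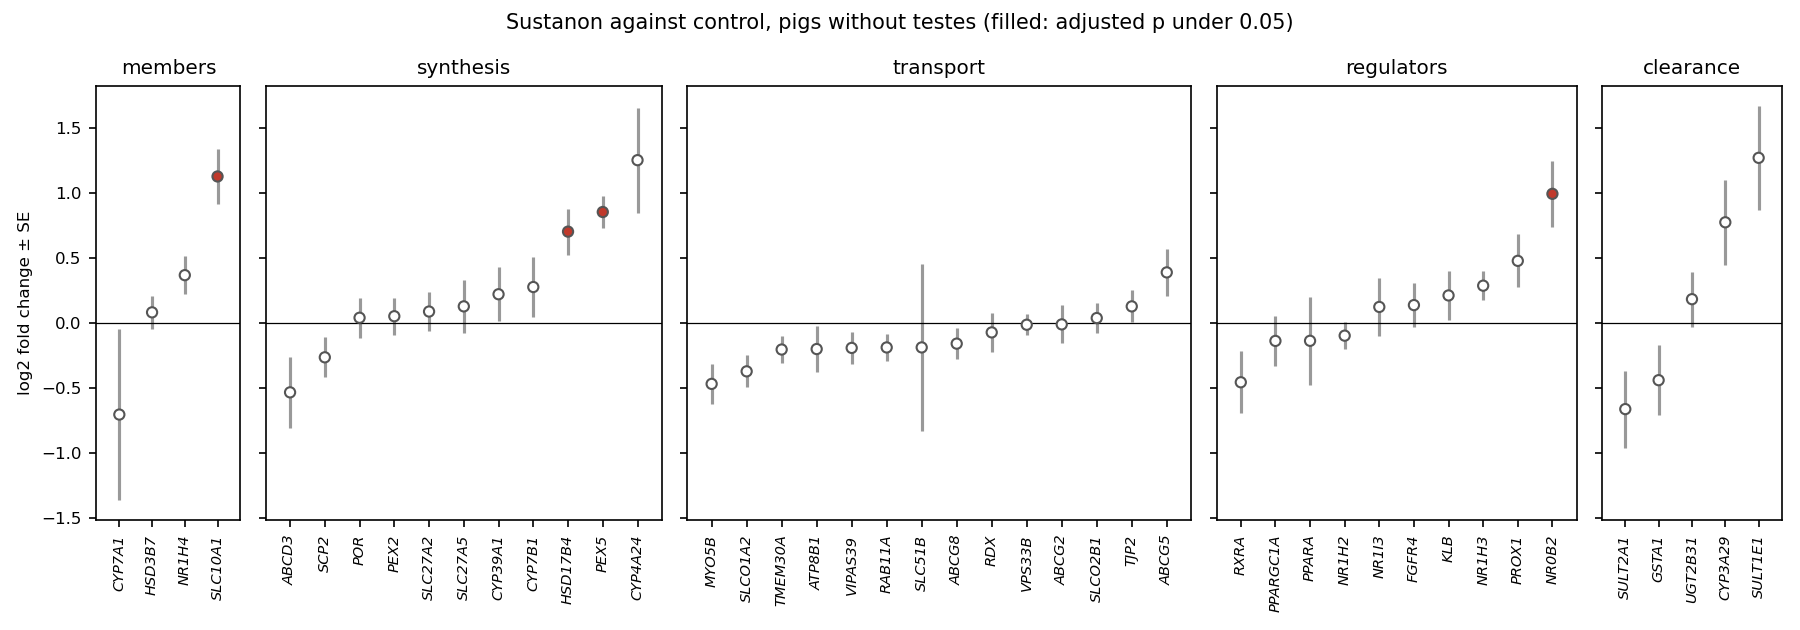
Log2 fold change with SE of every tested member and pathway gene, Sustanon against control in pigs without testes, by role and filled where the adjusted p of edgeR was under 0.05. SLC10A1 (1.13), HSD17B4 (0.70), PEX5 (0.85) and NR0B2 (0.99) are filled. Of the 14 transport genes, which leave out SLC10A1 (shown with the members), 11 lie below 0 and 0 were called. Their median is -0.17 beside -0.01 over all genes, and edgeR's unadjusted p was under 0.05 for 3 (1 higher, 2 lower).

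Further genes passed only at an unadjusted p. Over all pigs these were higher with Sustanon for CYP39A1 (0.49 on the log2 scale), an oxysterol hydroxylase, for the sterol exporter ABCG5 (0.45), for the oxysterol receptor NR1H3 (0.24), for CYP3A29 (0.92), a drug and bile acid hydroxylase, and for the sulfotransferase SULT1E1 (1.06). They were lower for the peroxisomal importer ABCD3 (-0.66), for MYO5B (-0.45), the motor that brings pumps to the canalicular membrane, and for the glutathione transferase GSTA1 (-0.57). Their adjusted p in edgeR lay between 0.0844 and 0.223.

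With Myodin, 0 of 39 pathway genes and 0 of all 8279 genes passed edgeR's adjusted test against control, while 4 pathway genes and 597 genes in all (7.21%) passed at an unadjusted p under 0.05 and DESeq2 called 1 gene. Those 4 were ABCG2 (0.31), ABCG5 (0.46), NR1H3 (0.29) and PPARGC1A (-0.46), a coactivator of CYP7A1 transcription. ABCG5 and NR1H3 had values near those with Sustanon, but both comparisons share the same controls.

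Castration was compared within boars over all treatments, 7 uncastrated against 8 castrated. SLC10A1 was at 509 CPM on average in uncastrated boars and 381 CPM in castrated boars. The log2 fold change was 0.48 with a 95% interval from 0.08 to 0.88 and an adjusted p of 0.192 by edgeR, in a comparison where 1.7% of genes passed, 1.01% downward. Without Myodin uncastrated boar 22, which had 253 CPM, it was 0.59 with an adjusted p of 0.0315. When the 3 libraries with contrary Y-linked counts were left out, the log2 fold change of SLC10A1 was 0.44. The other members gave 0.16 for NR1H4, -0.10 for HSD3B7 and -0.59 for CYP7A1, with unadjusted p between 0.237 and 0.375. The CYP7A1 value was -1.54 with an adjusted p of 0.140 by edgeR without Myodin uncastrated boar 23, its highest pig.

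SLCO2B1 (chromosome 9, 9433978 to 9474248), an organic anion carrier that takes up steroid sulfates, was the pathway gene called in this comparison. In castrated boars it was at 391, 377 and 310 CPM in controls 13, 14 and 15, at 329, 461 and 349 CPM in Sustanon pigs 1, 2 and 3, and at 373 and 399 CPM in Myodin pigs 8 and 9. In uncastrated boars it was at 253 and 248 CPM in controls 25 and 27, at 245 and 223 CPM in Sustanon pigs 19 and 20, and at 273, 222 and 303 CPM in Myodin pigs 22, 23 and 24. All 7 uncastrated boars were below all 8 castrated boars, an order seen downward in 0.114% of genes. The log2 fold change was -0.60 with an SE of 0.11 and an adjusted p of 0.00966 by edgeR, and it was called in each of the 24 fits that left out 1 pig. Without the 3 libraries with contrary Y-linked counts it was -0.63 with an adjusted p of 0.0185. In sows SLCO2B1 ranged from 249.9 to 432 CPM with a median of 306 CPM. Sows against castrated boars gave -0.28 with an SE of 0.0989, an unadjusted p of 0.0104 and an adjusted p of 0.324 by edgeR, and 5 of 9 sows were below all 8 castrated boars. The lowest of those boars was the library labelled castrated boar 15. When the 3 libraries with contrary Y-linked counts were left out, the value was -0.37 with an unadjusted p of 0.00442 and an adjusted p of 0.316, and 4 of 7 sows were below all 7 castrated boars.

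Of the 14 transport genes, 12 had a negative value in uncastrated against castrated boars, 7 of them at an unadjusted p under 0.05, as had 9.77% of all genes, and their median was -0.25 beside 0.0026 over all genes. These were, beside SLCO2B1, the carrier SLCO1A2 (-0.41), the sterol exporter subunit ABCG8 (-0.31), the basolateral exporter subunit SLC51B (-1.37), the flippase subunit TMEM30A (-0.29), MYO5B (-0.47) and RAB11A (-0.26), a GTPase of recycling vesicles. Their adjusted p in edgeR lay between 0.0691 and 0.245. Zone markers had negative values in the same comparison: all 4 of the hepatocytes around the central vein (median -0.75, 2 at an unadjusted p under 0.05) and all 4 of those around the portal tract (median -0.34, 2 at an unadjusted p under 0.05), with none called by edgeR. The central markers summed to 117 to 502 TPM in castrated and 76.0 to 482 TPM in uncastrated boars, the portal ones to 3584 to 6619 TPM and 2671 to 6165 TPM, and their part in the result was not tested. Endothelial and leukocyte markers had a positive value in 4 of 5 genes each (medians 0.13 and 0.15). Of these, 2 endothelial markers were higher at an unadjusted p under 0.05, edgeR called none, and their part was not tested either. Sows against castrated boars gave no call among members, with SLC10A1 at -0.05 (95% interval -0.42 to 0.32) and NR1H4 at 0.07 (-0.19 to 0.32). SLC10A1 was at -0.25 with an adjusted p of 0.694 when the 3 libraries with contrary Y-linked counts were left out. With all libraries edgeR called 6 genes in all (0.0685%), and 0 members passed at an unadjusted p under 0.05.

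**Figure D4:**
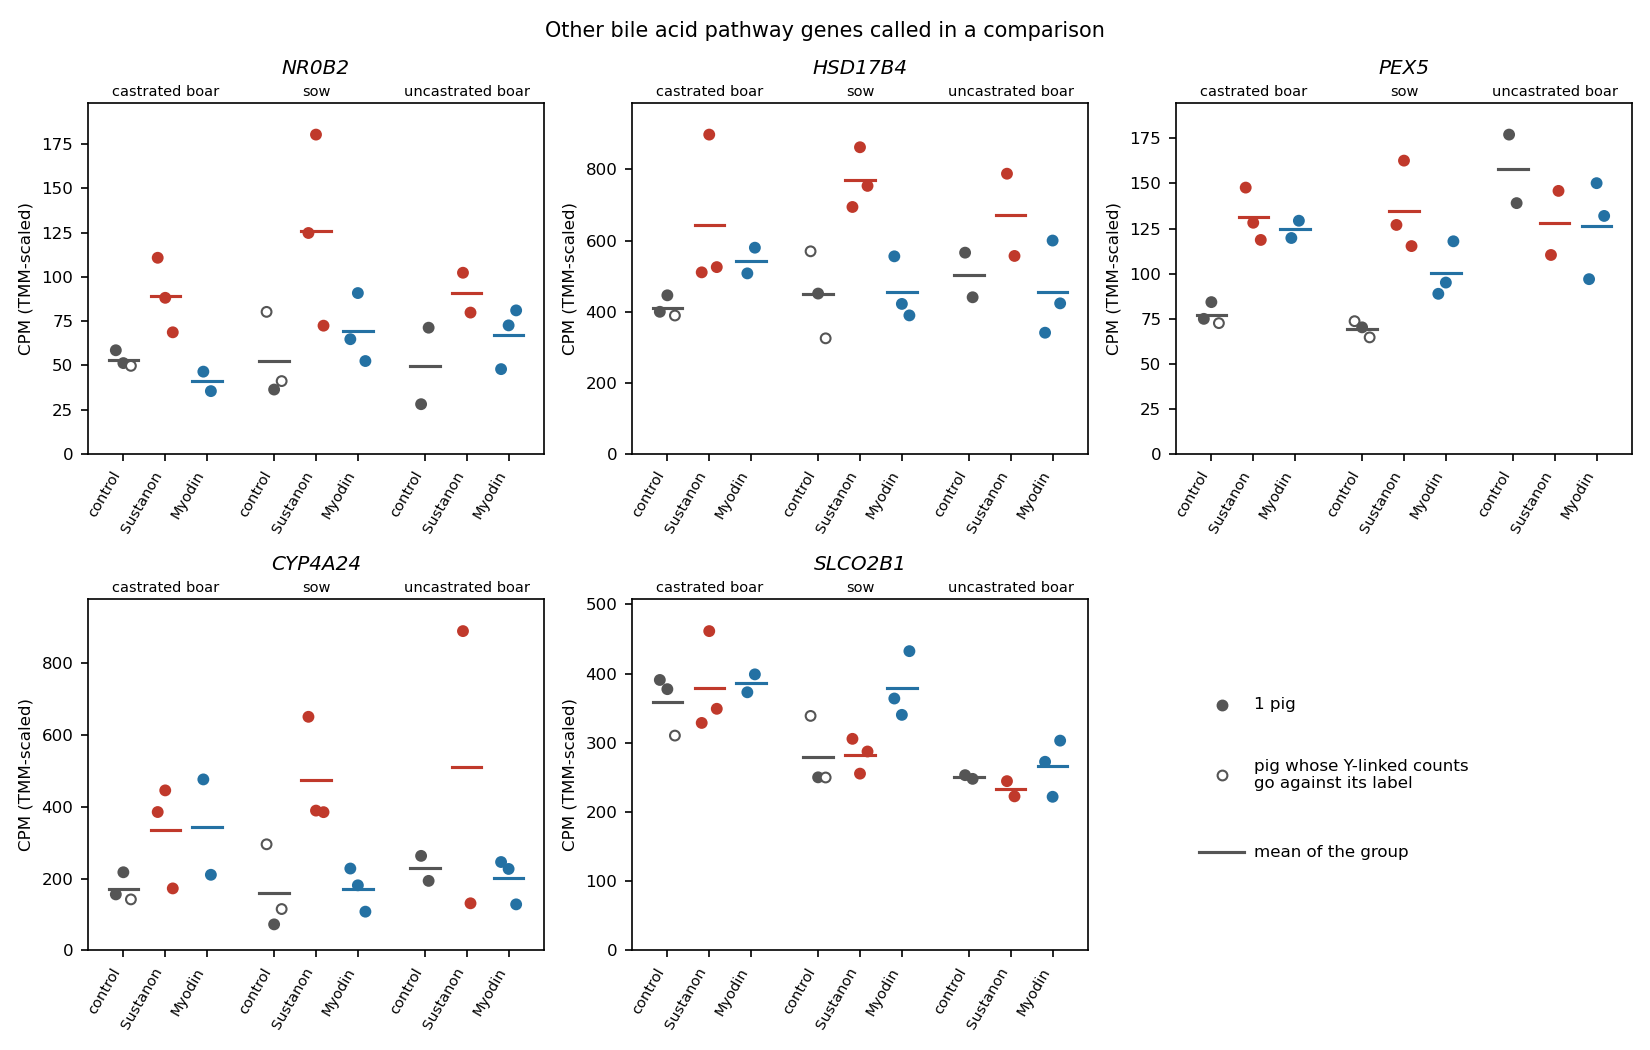
Level of the 5 pathway genes called in a comparison in every pig (CPM, linear axis), by castration group and treatment, with open circles for libraries whose Y-linked counts go against their label. PEX5 is at 64.7 to 84.2 CPM in controls without testes and at 177 and 139 CPM in control uncastrated boars, and SLCO2B1 is at most 303 CPM in uncastrated boars and at least 310 CPM in castrated boars.

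The members differed in how closely they moved together over the 24 libraries. SLC10A1 and NR1H4 had a Pearson correlation of 0.76 in log2 CPM, and 0.56 after the group means were removed. NR1H4 and HSD17B4 gave 0.74, and 0.80 after removal. CYP7A1 and HSD3B7 were near 0 against each other (-0.0039). The genes most like SLC10A1 were CROT (0.92), WASHC3 (0.91) and APCS (0.90), those most like NR1H4 were HPRT1 (0.90), TDO2 (0.88) and CROT (0.88), those most like HSD3B7 were SURF4 (0.78), SMG5 (0.77) and CTTN (0.75), and those most like CYP7A1 were ZNF143 (0.68) and RFX7 (0.64). These are descriptions over libraries that share treatments. CYP7A1 had few reads, and the part of its low depth in its correlations was not tested.

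In none of the 8 marker lists for liver cell types and zones did a gene pass the test between Sustanon and control. Of 6 hepatocyte markers, all had a positive value with Sustanon (median 0.19 on the log2 scale) and none passed, and their summed level was 120015 to 183177 TPM in controls and 144775 to 215308 TPM with Sustanon. The 4 bile duct markers with a row summed to 25.8 to 47.8 TPM in controls, 16.01 to 55.1 TPM with Sustanon and 18.3 to 27.5 TPM with Myodin. The 4 markers of hepatocytes around the central vein, where CYP7A1 is known to be strongest, summed to 212 to 502 TPM in controls and 60.9 to 456 TPM with Sustanon, with a median log2 fold change of -0.56. No listed marker with a row was at 0 in all libraries, and the part of these markers in the results was not tested.

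**Figure D5:**
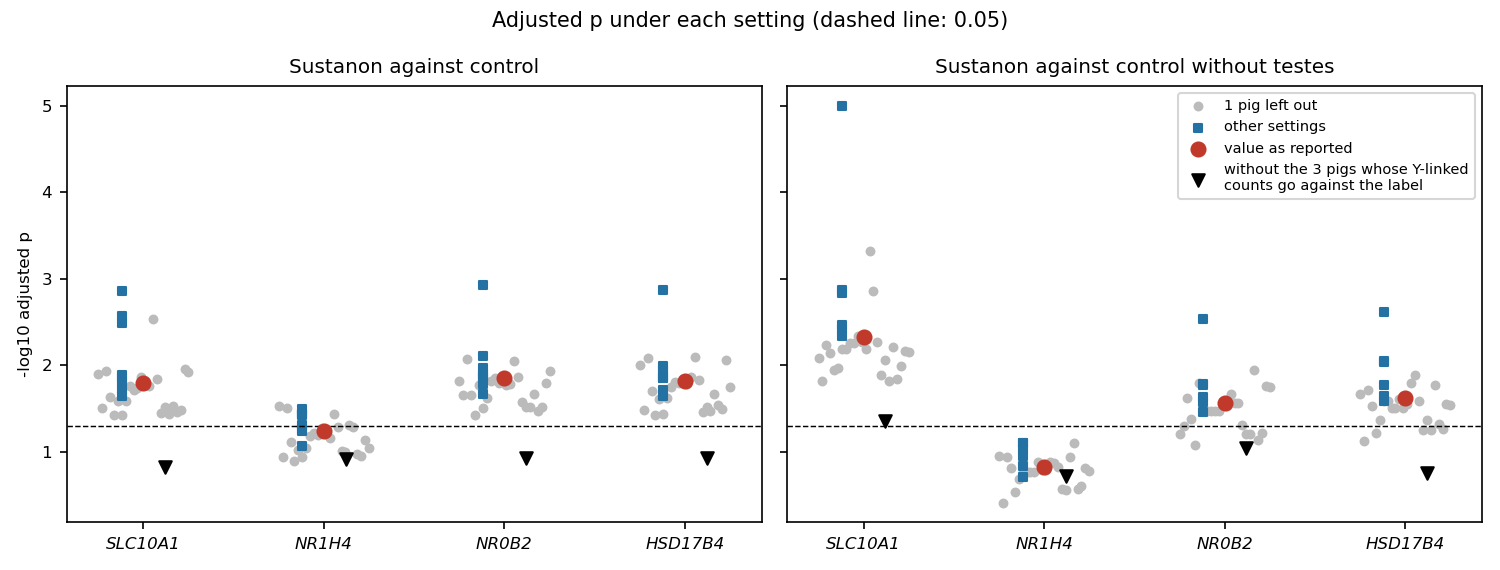
Adjusted p of 4 genes (as -log10) in 2 comparisons, as reported, with 1 pig left out, under other settings, and without the 3 pigs whose Y-linked counts go against their label. SLC10A1 stays past the dashed line of 0.05 in every fit that leaves out 1 pig and moves to 0.150 over all pigs and 0.0434 in pigs without testes when those 3 are left out.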

How the data were processed

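The authors extracted RNA, made stranded poly-A libraries and, per the labels and the submitters' processing notes, used FastQC, STAR 2.5, genome build Sscrofa11.1 and DESeq2. They deposited raw read counts per gene, without normalization, and the same libraries as log2(TPM + 1). The treatment of reads that match several similar genes is not given in the sources used here. Columns of per-sample values not used: 0.

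Counts were tested in R 4.3.3 with edgeR 4.0.16: filterByExpr, TMM, and quasi-likelihood tests, two-sided, in a fit of the 3 treatments (8279 genes) and a fit of the 9 groups of treatment by animal (8754 genes), with Benjamini-Hochberg adjustment over all genes tested. A gene was called at an adjusted p under 0.05. TPM were recovered from the deposited log2 values. Log2 CPM used a prior count of 2. The pigs were separate animals. Alternatives were DESeq2 1.42.0, limma 3.58.1 on log2(TPM + 1) and log2(TPM + 0.1), RLE scaling, no filter, a covariate, the 2 groups alone, and each of 24 libraries left out. Scripts were tested on simulated data.

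Named genes are the 10 members, pathway genes called in a comparison, and for each member the 3 genes most correlated with it, of which 1 is not reported here. Pathway genes given at an unadjusted p were named after their values were seen. Members and lists were chosen with earlier results of these data known. Coordinates are those of RefSeq on Sscrofa11.1. Sequences are not shown.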

Additional observations from a re-analysis of the deposited data

Results flagged for a closer look

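Over 54 groups examined, 4 held a pig far from the others of its group by Dixon's test, and chance gives about 1 in 20. CYP7A1 was at 19.6 CPM in Myodin uncastrated boar 23, where the next Myodin pig was at 6.35 CPM. HSD3B7 was at 334 CPM in Sustanon castrated boar 1, where the next Sustanon pig was at 258 CPM, both among all Sustanon pigs and among those without testes. CYP4A24 was at 476 CPM in Myodin castrated boar 8, where the next Myodin pig was at 246 CPM.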

How the results depend on the processing

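No paired analysis was possible because the groups compared share no replicate numbers. The call of SLC10A1 between Sustanon and control, and that without testes, held in all 24 fits without 1 pig; leaving out the 3 libraries with contrary Y-linked counts ended the first (log2 fold change 0.86). That SLC10A1 passed in DESeq2 without them came from a setting chosen after seeing the data. Low counts limit CYP7A1 and BAAT. The causes of the changes below were not tested.

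Genes called between Sustanon and control (420) became 129 with a log2 fold change of at least 1 too, 1625 at an unadjusted p, 637 by DESeq2, 255 by limma without a filter and 0 without the 3 libraries. With 1 pig left out they ranged from 198 to 613, and were 263 without Sustanon castrated boar 2, 211 without Sustanon sow 5, 198 without Sustanon uncastrated boar 19, 247 without Sustanon uncastrated boar 20, 249, 277 and 272 without control castrated boar 13, 14 or 15. Members called (1) became 0 with the fold threshold, 2 at an unadjusted p, by DESeq2, by each limma setting and with the 2 groups alone, and 0 without the 3 libraries (1 to 2 with 1 pig left out). For Myodin against control (0) the counts were 597 at an unadjusted p and 1 by DESeq2.

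For Sustanon against Myodin (55) they were 17 with the fold threshold, 1501 unadjusted, 276 by DESeq2, 36 with no filter, 2 by limma without a filter, 29 without the 3 libraries, 390 with the covariate, 9 with the 2 groups alone and 0 to 541 with 1 pig left out; members called (0) were 2 unadjusted, 1 by DESeq2, 1 by limma with either pseudocount, 2 with the covariate and 0 to 2 with 1 pig left out. For Sustanon without testes (466) they were 178, 1731 unadjusted, 701 by DESeq2, 70 without the 3 libraries and 287 to 581 with 1 pig left out (296 without Sustanon castrated boar 2, 287 without Sustanon sow 5 and 291 without control castrated boar 14); members called (1) were 2 unadjusted. For Myodin without testes (5) they were 3, 920 unadjusted, 80 by DESeq2, 0 and 1 by limma with a pseudocount of 1 and 0.1, 1 by limma without a filter, 0 without the 3 libraries and 0 to 13 with 1 pig left out.

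For uncastrated against castrated boars (149) they were 59, 1568 unadjusted, 376 by DESeq2 and 43 to 482 with 1 pig left out; members called (0) were 1 unadjusted and 0 to 1. For sows against castrated boars (6) they were 1010 unadjusted, 33 by DESeq2, 0 by limma, 14 without the 3 libraries and 0 to 32. For the Sustanon interaction (5) they were 653 unadjusted, 45 by DESeq2, 12 by limma without a filter, 0 without the 3 libraries and 0 to 12. For the Myodin interaction (11) they were 1083 unadjusted, 95 by DESeq2, 6 by limma with a pseudocount of 0.1, 1 without the 3 libraries and 3 to 202; members called (0) were 1 unadjusted.

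Without the 3 libraries the sign turned for NR1H4 with Myodin (0.073) and for CYP7A1 with Myodin (0.087), with Sustanon without testes (0.32), with Myodin without testes (0.18) and in the Sustanon interaction (-0.90). By limma SLC10A1 turned in the Myodin interaction (-0.082, and -0.084 with a pseudocount of 0.1). With 1 pig left out, values spanned 0 for HSD3B7 with Sustanon (-0.092 to 0.059), NR1H4 with Myodin (-0.11 to 0.024), CYP7A1 in Sustanon against Myodin (-0.66 to 0.34), SLC10A1 with Myodin without testes (-0.027 to 0.20), SLC10A1 in sows (-0.13 to 0.027), CYP7A1 in sows (-0.75 to 9.3e-05), CYP7A1 in the Sustanon interaction (-0.14 to 0.69), SLC10A1 in the Myodin interaction (-0.17 to 0.56) and CYP7A1 in the Myodin interaction (-1.05 to 2.41). None of these values was called.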
